A study of Mus musculus with 28 samples.

Results

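The regions described here carried no peak of the histone mark H3K27ac in untreated mouse mammary epithelial cells, had a peak in every library after 4h of TGF-β and still had one in every library at 24h. They are 798 of the 89050 regions formed by merging overlapping peaks, by at least 1 bp, from all 15 H3K27ac ChIP-seq libraries of the study. The rule was 0 of 3 libraries with a peak at 0h, 3 of 3 at 4h and 3 of 3 at 24h, so the regions were chosen by the calls at these times, which are given as a description. All libraries came from 1 subclone (NMuMG/E9) of the NMuMG line. At 0h the cells were untreated, and at 4h and 24h they had received TGF-β at 2 ng/ml after the solvent DMSO. ERKi 4h and ERKi 24h cells received the same TGF-β, and UO126 at 25 µM had been added 30 min before it. Each of the 5 groups has 3 replicate libraries, and the labels do not say whether these are separate cultures, so the p-values measure only the spread between these libraries, which may be technical. Untreated cells with UO126 alone, and cells with DMSO and no TGF-β at 4h or 24h, are not among the groups analysed here.

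TGF-β binds receptor kinases that phosphorylate SMAD2 and SMAD3, which enter the nucleus with SMAD4 and bind short DNA elements, often beside other factors such as AP-1, a dimer of Jun and Fos proteins. H3K27ac is found at active promoters and enhancers. TGF-β also activates ERK through the kinase MEK, which UO126 inhibits, and in NMuMG cells TGF-β drives the epithelial to mesenchymal transition (EMT), in which cells lose junctions and gain motility.

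The following stretches of 8 of the regions or their edges are printed because they hold the SMAD and AP-1 elements that were more frequent in the regions, and they were picked after the values were seen. Each is 160 bases of the + strand of NCBIM37 (mm9), 5′ to 3′. Capitals mark the AP-1 element TGACTCA, the SMAD box CAGACA and the SMAD palindrome GTCTAGAC on either strand, so that TGAGTCA and TGTCTG are the same elements read from the other strand. The palindrome does not contain the SMAD box. In the first 4 a palindrome is printed, in the Runx1 and Itgav sequences together with AP-1, and in the last 4 a SMAD box lies within 30 bp of an AP-1 element.
Pmepa1 intron chr2:173083583-173083742: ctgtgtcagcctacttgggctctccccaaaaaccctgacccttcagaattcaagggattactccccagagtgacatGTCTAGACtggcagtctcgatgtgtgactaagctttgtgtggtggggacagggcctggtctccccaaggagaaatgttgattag
Palld intron chr8:64176907-64177066: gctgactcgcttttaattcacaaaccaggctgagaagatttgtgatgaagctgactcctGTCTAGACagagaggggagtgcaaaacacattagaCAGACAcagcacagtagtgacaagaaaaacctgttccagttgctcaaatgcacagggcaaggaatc
Upstream of Runx1 chr16:92998011-92998170: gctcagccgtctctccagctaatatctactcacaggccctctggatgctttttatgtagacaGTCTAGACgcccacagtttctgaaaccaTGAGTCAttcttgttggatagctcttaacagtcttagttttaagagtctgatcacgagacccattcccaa
Upstream of Itgav chr2:83555037-83555196: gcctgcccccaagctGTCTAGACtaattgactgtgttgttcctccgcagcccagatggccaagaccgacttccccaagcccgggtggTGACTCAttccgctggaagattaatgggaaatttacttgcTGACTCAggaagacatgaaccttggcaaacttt
Downstream of Zfp36l2 chr17:84552346-84552505: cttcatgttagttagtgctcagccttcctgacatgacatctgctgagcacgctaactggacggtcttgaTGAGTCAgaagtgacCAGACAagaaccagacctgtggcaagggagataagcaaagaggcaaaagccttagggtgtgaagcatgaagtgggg
Gm20388 intron, nearest start site Gm22 chr8:124668624-124668783: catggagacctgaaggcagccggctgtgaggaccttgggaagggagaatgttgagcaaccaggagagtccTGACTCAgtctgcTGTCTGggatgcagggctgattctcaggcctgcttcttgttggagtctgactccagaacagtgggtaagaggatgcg
Downstream of Dusp1 chr17:26634321-26634480: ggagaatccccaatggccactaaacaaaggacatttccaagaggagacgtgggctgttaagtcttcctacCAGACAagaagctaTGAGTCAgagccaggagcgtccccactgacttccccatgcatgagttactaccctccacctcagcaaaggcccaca
D630003M21Rik intron chr2:158044138-158044297: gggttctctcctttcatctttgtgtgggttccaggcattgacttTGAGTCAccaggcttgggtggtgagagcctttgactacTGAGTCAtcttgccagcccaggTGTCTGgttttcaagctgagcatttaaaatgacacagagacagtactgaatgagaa

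These elements lay beside the summit of the peak rather than under it. In the Pmepa1 intron the centre of the palindrome was 284 bp from the summit, in the Palld intron 196 bp, and upstream of Runx1 208 bp. The printed elements fell past the edge of the region itself in the Itgav, Zfp36l2, Gm22 and D630003M21Rik sequences. Near Zfp36l2, the summits of a pair of regions lay on both sides of 1 AP-1 element, the one printed, which starts at position 84552415 of chromosome 17.

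Over all of the regions, the number of AP-1 matches per 1000 bp was 0.138 within 100 bp of the summit, 1.20 at 200 to 300 bp and 0.194 at 900 to 1000 bp. Over all 89045 regions with a full window, the value at 200 to 300 bp was 0.676. The SMAD box went from 1.39 matches per 1000 bp within 100 bp of the summit to 2.76 at 200 to 300 bp, against 1.28 at that distance over all regions. The palindrome stood at 0.144 at 200 to 300 bp, against 0.0184 over all regions. A match is a run of letters and not evidence that a factor was bound.

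In the 1000 bp around the summit, AP-1 was found in 57.8% of the 798 regions and in 35.1% of all regions. A SMAD box was found in 86.6% of them (65.3% of all regions) and the palindrome in 52, or 6.52% (1.34% of all regions). An AP-1 element with a SMAD box or palindrome within 30 bp of it stood in 142 regions, or 17.8%, beside 3.76% of all regions. The late-gained regions, 1979 regions with no peak in any library at 0h and 4h and a peak in all 3 at 24h, held AP-1 about as often (61.6%). The SMAD box was found in 74.7% of the late-gained regions, the palindrome in 1.87% and the pair of elements in 10.6%. Regions called in all 15 libraries and lying outside promoters held AP-1 in 34.9%, the SMAD box in 62.2%, the palindrome in 1.17% and the pair in 3.28%. The RUNX element TGTGGT was found in 59.1% of the 798 regions, 55.8% of all regions and 64.8% of the late-gained regions, and the ETS element AGGAAGT in 27.6%, 26.9% and 34.7%. In the narrower window of 300 bp around the summit AP-1 was in 6.39% of the 798 regions and in 6.67% of all regions, the palindrome in 0.376% and 0.325%, and the SMAD box in 34.2% and 27.8%. These shares are descriptions without a test, since regions are not replicates.

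**Figure D1:**
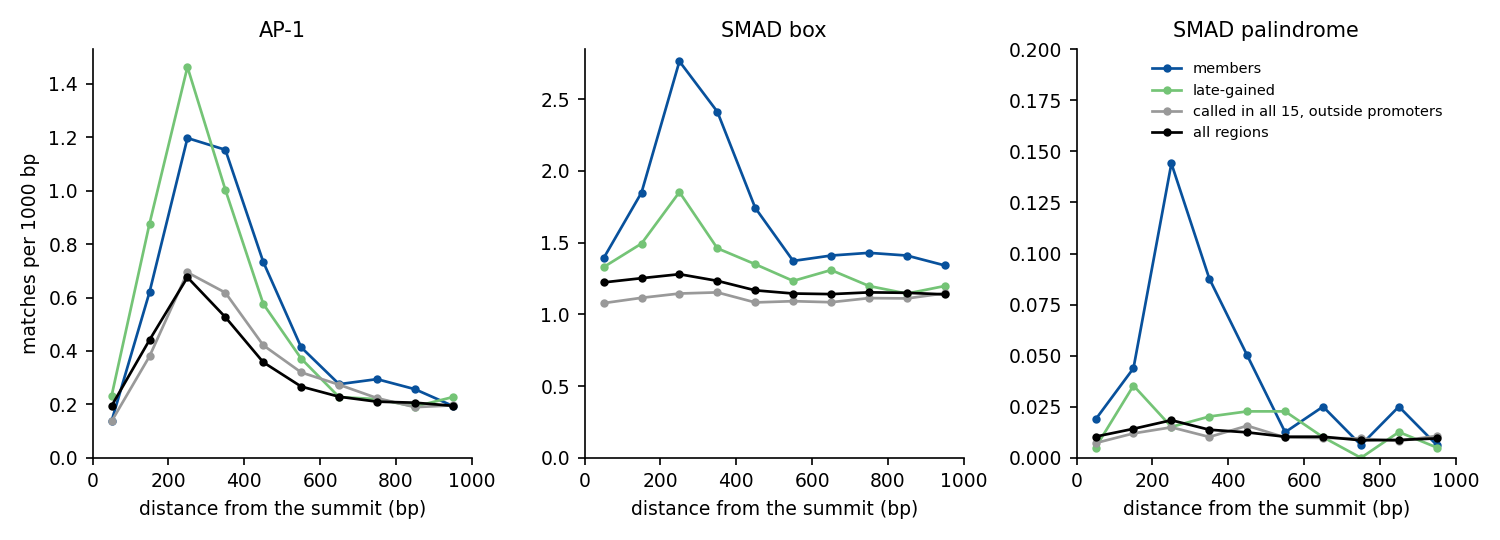
Matches per 1000 bp of the AP-1 element, the SMAD box and the SMAD palindrome (panels) by distance from the peak summit in 100 bp steps, for the 798 regions (members), the late-gained regions, the regions called in all 15 libraries outside promoters, and all regions. Each line dips at the summit or is flat there, and the line of the 798 regions is highest of the 4 at 200 to 300 bp for the SMAD box (2.76) and the palindrome (0.144), while for AP-1 the late-gained regions are highest.

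Most of the 798 regions were distal. Their summits fell in introns in 45.5%, between genes in 48.6% and in promoters (1000 bp before to 100 bp after a start site) in 2.26%, or 18 regions, while 11.8% of all regions were promoters. With promoters taken as 2500 bp on either side of a start site, 11.4% of the 798 regions were promoters and 26.2% of all regions. The median distance from summit to nearest start site was 17235 bp, against 11166 bp over all regions and 17401 bp over the late-gained regions. A region had a median width of 1087 bp, against 591.5 bp over all regions, 710 bp over the late-gained regions and 1404 bp over those called in all 15 libraries. Of the 798, 103 (12.9%) had another of them within 10000 bp, and no such share was computed for other sets of regions.

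The level of a peak is given here as its pileup, the number of ChIP fragments over the summit, recovered from the deposited fold enrichment and p-value. In bulk cells a low pileup from fewer cells with the mark and one from less of the mark per cell cannot be told apart. The lowest pileup of any peak at 0h was 9, 10 and 9 in replicates 1, 2 and 3, and the 5th percentile of peaks was 15, 14 and 13. A call depends on the local background too, so a region without one can hold more fragments than these lowest values. The absence of a call at 0h is therefore not an absence of H3K27ac. The median pileup of the 798 regions was 29, 20 and 33 in the 4h replicates 1, 2 and 3 and 64, 33 and 66 at 24h. To compare libraries, these medians were divided by the median pileup of the regions called in all 15 libraries. The ratio was 0.329 ± 0.044 (SD, n = 3) at 4h and 0.649 ± 0.164 (SD, n = 3) at 24h, and the 24h libraries, from 0.471 to 0.795, all lay above the 4h libraries, from 0.299 to 0.379. Under ERKi the peaks that were called had ratios of 0.344 ± 0.0377 (SD, n = 3) at 4h and 0.604 ± 0.111 (SD, n = 3) at 24h. Late-gained regions stood at 0.313 ± 0.0393 (SD, n = 3) at 24h, near where the 798 regions stood at 4h.

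**Figure D2:**
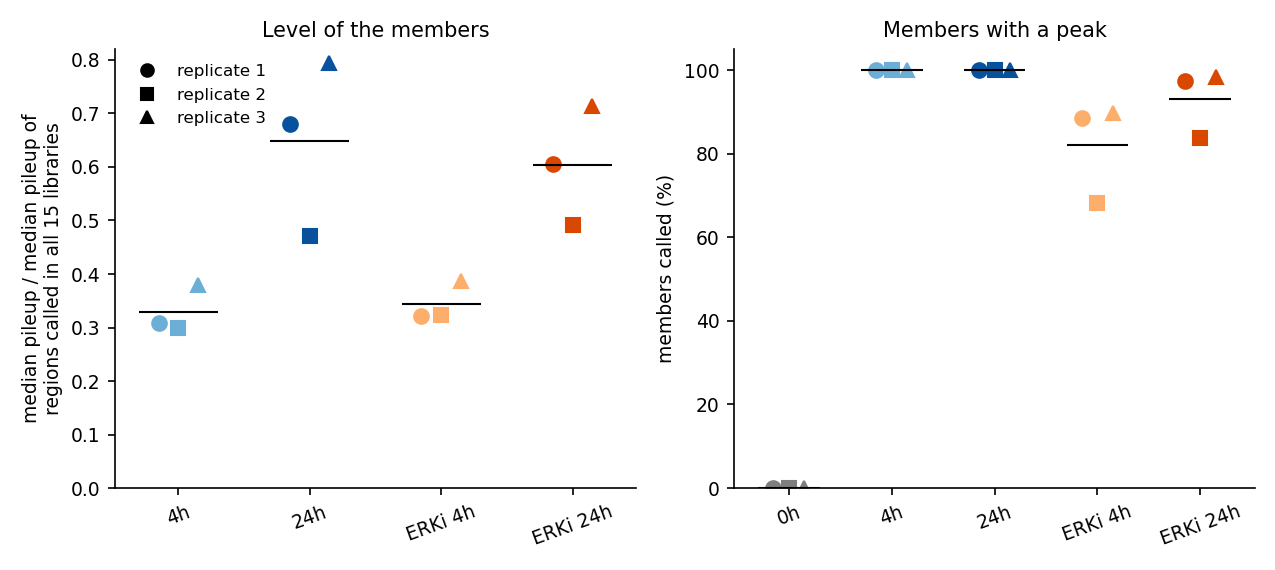
Left, median pileup of the called regions among the 798 divided by the median pileup of the regions called in all 15 libraries, and right, share of the 798 regions with a peak (%), for each library by group, with marker shape for the replicate and a line for the group mean. The 4h and ERKi 4h libraries sit between 0.299 and 0.388 and the 24h and ERKi 24h libraries between 0.471 and 0.795, while ERKi replicate 2 has the lowest share at both times.

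Replicate 2 had the lowest ratio at 24h and the lowest share of called regions under ERKi. The peak names of ERKi 4h replicate 1 carry a library number out of the order of the others. Its group was taken from the labels. Promoters of the epithelial genes Cdh1, Krt8 and Krt18 had a peak within 2500 bp of a start site in all 15 libraries, Cldn7 in 10 and Epcam in 0, and those of the blood and endothelial genes Ptprc, Cd3e, Pecam1 and Cdh5 in 0.

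With the MEK inhibitor present, most of the regions had a peak in each ERKi library. Of the 798 regions, ERKi 4h replicates 1, 2 and 3 called 88.6%, 68.2% and 89.8%, or 82.2% ± 12.2 (SD, n = 3). The same libraries called 48.9%, 48.5% and 55.3% of all regions. ERKi 24h replicates 1, 2 and 3 called 97.4%, 83.8% and 98.4%, or 93.2% ± 8.12 (SD, n = 3), and of all regions 59.5%, 46.7% and 64.3%. Without ERKi 4h replicate 1 the 4h mean was 79.1% and without ERKi 4h replicate 2 it was 89.2%. Of the late-gained regions, the ERKi 4h libraries called 6.28% ± 2.38 (SD, n = 3) and the ERKi 24h libraries 54.2% ± 25.3 (SD, n = 3).

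The DMSO libraries called all of the regions because the rule asked for it, so each was also left out of the rule in turn and scored on the regions that the other libraries chose. The 4h replicate 1 then called 79.3% of 1006 regions, and ERKi 4h replicate 1 called 79.1% of them. For replicate 2 the shares were 61.9% of 1290 regions with DMSO and 53.1% under ERKi, and for replicate 3 they were 95.6% of 835 regions and 87.8%. At 24h the left-out DMSO libraries called 97.3%, 89.6% and 98.5%, and the ERKi 24h libraries of the same numbers 97.1%, 81.6% and 98.0%. The ERKi library was lower in 3 of 3 replicate numbers at each time, by 0.199 to 8.76 percentage points at 4h and by 0.244 to 7.97 at 24h. The other DMSO libraries still chose these regions and no ERKi library did, which can favour a higher share with DMSO. Left-out 0h libraries called 26.3%, 8.49% and 21.2% of the regions chosen without them. With 3 pairs no exact test of these shares can reach p under 0.05, and none was run.

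**Figure D3:**
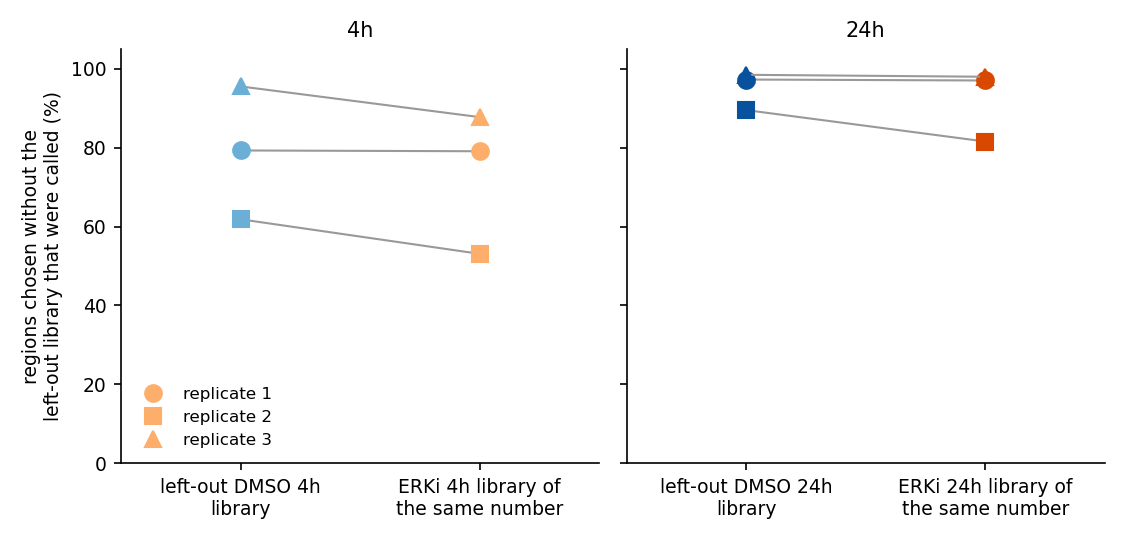
Share (%) of the regions chosen without a given DMSO library that this library called, joined by a line to the share called by the ERKi library of the same replicate number, at 4h (left) and 24h (right), with marker shape for the replicate. At 4h replicate 2 is lowest on both sides (61.9% and 53.1%), and at 24h the values lie between 81.6% and 98.5%.

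Regions just outside the rule gave values on both sides of these. The 574 regions with 1 call at 0h and full calls at 4h and 24h were called in 83.2% per ERKi 4h library and 90.2% per ERKi 24h library on average. The 737 regions called in 2 of 3 libraries at 4h, and otherwise the same, were called in 53.5% and 84.2%, and the 127 called in 2 of 3 at 24h in 76.6% and 81.4%. The 39 regions with 3 calls at 4h and none at 0h or 24h were called in 64.1% and 39.3%.

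By single regions, 481 of the 798 (60.3%) had a peak in all 6 ERKi libraries, where 36.5% of all regions did. At ERKi 4h, 513 (64.3%) were called in 3 of 3 libraries against 40.9% of all regions, and 39 (4.89%) in 0 of 3 against 37.5%. At ERKi 24h, 668 (83.7%) were called in 3 of 3 against 42.6%. Regions late under ERKi, called in at most 1 of 3 libraries at ERKi 4h and in 3 of 3 at ERKi 24h, numbered 48, or 6.02%, against 3.15% of all regions. The opposite pattern was found in 2 regions, against 1.76% of all regions. The 39 regions with no ERKi 4h call had a median percentile within the 4h DMSO libraries of 11.4, against 32.3 for the 513 regions with 3 ERKi 4h calls. Of the 39, 27 were under percentile 25, but they ranged from 0.370 to 99.8, the last being a region in an intron of Glis3.

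Of the 798 regions 4 (0.501%, against 18.9% of all regions) had no peak in any of the 6 ERKi libraries. The first lay between genes on chromosome 7 at 86111717 to 86112452, with Isg20, an interferon-induced exonuclease, as nearest protein-coding gene. Its pileups were 16, 17 and 19 at 4h and 41, 57 and 45 at 24h. The others were an intergenic region 309 kb from Bmp2 (15, 13 and 16 at 4h and 48, 26 and 35 at 24h), an intron of the kinase gene Mast4 (17, 12 and 18, then 36, 16 and 51) and a region 9.25 kb upstream of Cd83 (20, 14 and 12, then 32, 14 and 43). All of the 4h values stood at 20 or below, where the lowest pileups called in a library were 8 to 11, while the 24h values reached 57.

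Pileups could be compared between the treatments only where both had peaks in all 3 libraries, which leaves out regions without an ERKi call. At 4h the median ERKi minus DMSO difference was 0.00 on the log2 scale over 513 of the regions (0.01 over all regions so called), with 255 of the 513 lower under ERKi and quartiles of -0.19 and 0.16. At 24h it was -0.05 over 668 regions (0.01 over all), with 359 lower and quartiles of -0.36 and 0.31. Since the rule asked for DMSO peaks and not for ERKi peaks, these differences are given with no test.

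The pileup of many of the regions was higher at 24h than at 4h. The calls of these 6 DMSO libraries had chosen the regions. Both times had to be called, so the rule did not use the difference itself, but it limited falls. A region that fell under the caller's threshold by 24h left the set, while a rise had no such limit. The counts of rises and falls are therefore partly set by the rule, and how far was not tested. Among the 31327 regions called in all 6 DMSO libraries at 4h and 24h, limma (two-sided, Benjamini-Hochberg adjusted p under 0.05) called 3.03% higher and 1.04% lower at 24h. Of the 798 regions, all of which were tested, 256 (32.1%) rose and 2 fell. The difference was positive in 726 of 798, with a median of 0.76 on the log2 scale, where the median over all tested regions was 0.00. With the replicate number as a block, 512 rose and 8 fell (12.2% and 10.3% of all tested regions), and all of the 256 were among the 512. On log2 fold enrichment in place of pileup, 16 rose and 0 fell, 624 of the 798 were positive and the median difference was 0.20. Rises of single regions named below are calls on pileup unless fold enrichment is stated. Without 24h replicate 2, 389 rose, and without 24h replicate 1 or 4h replicate 1, 121 and 119 did.

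For regions with a peak in 1, 2 or 3 of the 0h libraries, and in all libraries at 4h and 24h, the shares that rose were also counted, with no test of the differences. They were 17.2% of 574 regions with 1 call at 0h, 9.70% of 1371 with 2 calls and 1.61% of 28584 with 3 calls, and the median differences were 0.46, 0.28 and -0.02. The level at 4h is itself part of the difference, so its relation to the rise is given as values only. Of the 346 regions at a percentile of 25 or below within the 4h libraries, 43.9% rose, and of the 284, 120 and 48 regions in the bands up to 50, 75 and 100 the shares were 28.9%, 17.5% and 2.08%.

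**Figure D4:**
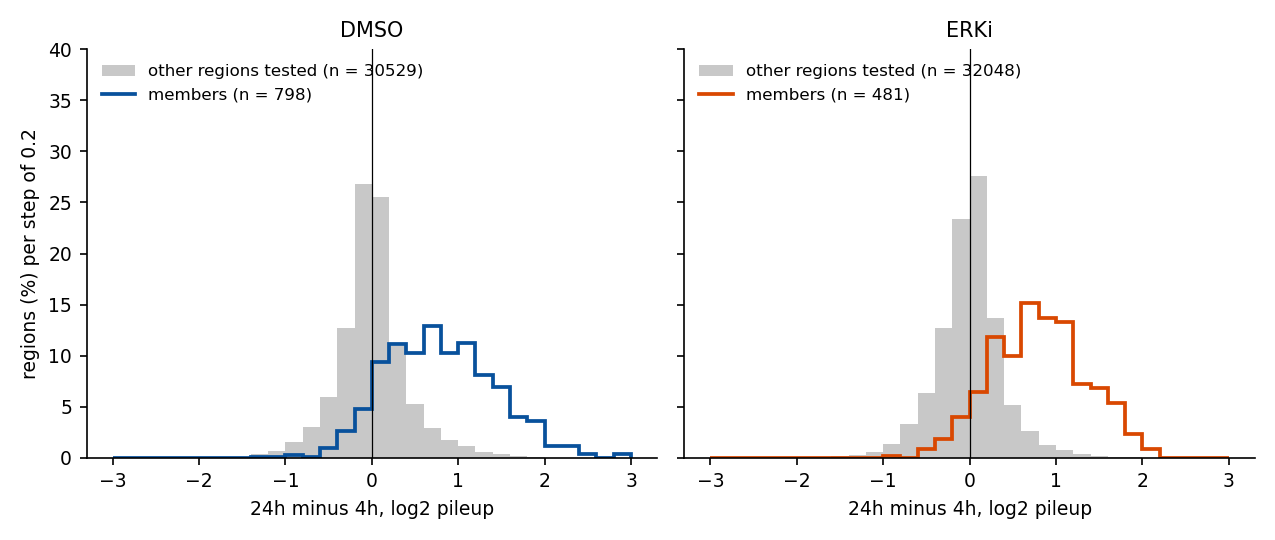
Distribution of the log2 pileup at 24h minus 4h in steps of 0.2 (values past 3 in either direction in the outer steps), as a percentage of regions, for the members (line) and the other regions tested (filled), with DMSO on the left (n = 798 members) and under ERKi on the right (n = 481). Most of the line lies to the right of 0 in both panels, with medians of 0.76 and 0.79.

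Under ERKi a rise from 4h to 24h was also measured, in libraries that the rule had not used. Only regions with a peak in all 6 of these libraries were tested, which left out 317 of the 798. A region that fell under the caller's threshold by ERKi 24h was thus not counted, so falls were limited here too. Among 32529 regions called in all 6 ERKi libraries, 1.57% rose and 0.738% fell from ERKi 4h to ERKi 24h. Of the 798 regions 481 could be tested, of which 139 rose, 0 fell and 448 were positive, with a median difference of 0.79 (0.02 over all tested regions). With the replicate block 334 rose and 2 fell (9.91% and 8.41% of all tested). On log2 fold enrichment 7 rose and 0 fell, 362 of the 481 were positive and the median difference was 0.18. Without ERKi 24h replicate 1 there were 51 rises and without ERKi 4h replicate 1 there were 76. In these 481 regions 133 rose with DMSO, 139 under ERKi and 77 in both, which is 57.9% of the first and 55.4% of the second.

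The difference between the changes was tested as an interaction over the 28650 regions called in all 12 TGF-β libraries, and limma called 0.0% in either direction. None of the 481 tested members passed, while 38 had an unadjusted p under 0.05 (1511 of all regions tested). With the replicate block, the change was higher under ERKi in 19 of the 481 and lower in 5, beside 2.98% and 2.02% of all tested regions. Together these are 4.99% of the members tested and 5.0% of all regions tested, so the share of members was near the background.

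The lowest adjusted p of the interaction with the block belonged to an intron of Hadh, a mitochondrial enzyme of fatty acid oxidation, at chr3:130966144-130968044, named after its values were seen. Its pileups with DMSO were 31, 19 and 30 at 4h and 18, 23 and 26 at 24h. Under ERKi they were 29, 18 and 38 at 4h and 124, 57 and 161 at 24h, above every other library of the region. The interaction was 1.94 ± 0.40 (log2, SE), with a limma adjusted p of 0.428 without the block and 0.000361 with it. Next came a region 5.24 kb downstream of the start of Srsf3, a splicing factor, which is also 1 of the 2 regions that fell with DMSO.

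The fall near Srsf3 (chr17:29181962-29183062) was from pileups of 107, 81 and 127 at 4h to 47, 28 and 70 at 24h, with no overlap. The log2 difference was -1.19 ± 0.28 (SE; limma adjusted p = 0.026). Under ERKi the values were 118, 81 and 161 at 4h and 133, 92 and 201 at 24h, a difference of -0.02 (adjusted p = 0.99). The interaction was 1.18 ± 0.38, with an adjusted p of 0.718 and, with the block, 0.000971. The other fall was at chr19:42773207-42774504, 278 bp from a copy of the small nucleolar RNA gene SNORA17, from 130, 157 and 258 to 64, 47 and 138 (-1.22 ± 0.33, adjusted p = 0.046). Both calls were lost when some single libraries were left out.

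The 4 rises with the lowest adjusted p were led by a promoter. That of 4933411K16Rik (chr19:42125961-42127613) had pileups of 121, 87 and 76 at 4h and 997, 341 and 885 at 24h, the lowest 24h value lying above every 4h value. The difference was 2.85 ± 0.26 (log2, SE; adjusted p = 8.9e-05), and this region is 170 bp from one called in all 0h libraries. Under ERKi it reached 396, 114 and 355 at 24h.

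An intron of Pde4dip, which codes for a centrosome and Golgi anchoring protein, went from 35, 24 and 38 to 237, 125 and 181 (2.47 ± 0.24, adjusted p = 0.00014). The Palld intron whose palindrome is printed above lies in the gene for palladin, an actin-bundling protein, and went from 14, 12 and 13 to 141, 56 and 100 (2.83 ± 0.30, adjusted p = 0.00031). It had no peak in any ERKi 4h library and pileups of 131, 33 and 109 at ERKi 24h. A region in an intron of Myo3b, an unconventional myosin, did likewise, with 17, 14 and 20 at 4h, 176, 63 and 165 at 24h (2.86 ± 0.32, adjusted p = 0.00051), no call at ERKi 4h and 123, 29 and 94 at ERKi 24h. Both were among the lower called peaks at 4h with DMSO, at percentiles of 1.31, 2.60 and 4.30 (Palld) and 6.69, 7.74 and 19.6 (Myo3b). A missing ERKi 4h call can therefore be a small difference in level. On log2 fold enrichment the differences were 0.97 for both 4933411K16Rik and Palld, which still passed, and 0.29 for Pde4dip and 0.17 for Myo3b, which did not.

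Under ERKi the lowest adjusted p belonged to a region 52.4 kb downstream of the start of Gdnf, a neurotrophic growth factor of the TGF-β superfamily. Its pileups were 56, 36 and 43 at ERKi 4h and 275, 92 and 275 at ERKi 24h (1.87 ± 0.24, limma adjusted p = 0.0016), and with DMSO they were 70, 37 and 42, then 204, 107 and 195 (1.76 ± 0.24, adjusted p = 0.0014). The interaction there was 0.10 ± 0.35 (adjusted p = 0.999994). An intron of Golga7b went from 54, 38 and 41 to 220, 90 and 200 under ERKi (1.61 ± 0.21, adjusted p = 0.0023). An intron of Dclk2, with Gm3788 as the nearest start site, went from 18, 21 and 23 to 131, 56 and 146 (2.07 ± 0.28, adjusted p = 0.0023), where with DMSO it went from 15, 14 and 21 to 46, 27 and 36. The DMSO rise also passed (1.12 ± 0.27, limma adjusted p = 0.028). The interaction did not (0.96 ± 0.36, limma adjusted p = 0.797, and 0.053 with the block).

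Many of the regions with the highest levels adjoined a peak that untreated cells already had. Of the 62 regions with a mean percentile over 75 at 4h and 24h, 5 rose and 1 fell with DMSO, with a median difference of 0.19, and 35 (56.5%) lay within 1000 bp, edge to edge, of a region called in all 0h libraries. In the bands from 50 to 75, from 25 to 50 and under 25 the shares were 22.3%, 6.75% and 1.54%, and 110 of all 798 (13.8%) lay so close. The highest of all, in an intron of Glis3 (chr19:28699538-28699927), had 685, 411 and 755 at 4h and 1019, 420 and 902 at 24h. It lay 374 bp from a region with 0h pileups of 1482, 708 and 969, had no peak in any ERKi 4h library, and at ERKi 24h had 850 and 981 in replicates 1 and 3.

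The results were therefore also taken over the 688 regions more than 1000 bp from a region called in all 0h libraries, a choice made after seeing the data. Of these, the ERKi libraries called 82.7% at 4h and 94.0% at 24h. With DMSO 243 (35.3%) rose and 2 fell, and 130 of the 422 that could be tested rose under ERKi. Of the 110 closer regions 13 (11.8%) rose with DMSO. AP-1 was found in 58.1% of the 688, the palindrome in 6.69% and AP-1 with a SMAD element within 30 bp in 17.2%.

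Among the TGF-β pathway genes, Pmepa1, a TGF-β target whose product dampens SMAD signalling, had 3 regions in its introns that were among the 10 highest. At chr2:173083368-173084119, whose sequence is printed above, the pileups were 230, 133 and 278 at 4h and 306, 138 and 239 at 24h. Under ERKi they were 215, 152 and 200, then 390, 170 and 390. The 24h minus 4h differences were 0.08 ± 0.21 with DMSO (adjusted p = 0.96) and 0.42 ± 0.16 under ERKi (adjusted p = 0.2, and 0.0089 with the block). The other 2 Pmepa1 regions had differences of 0.14 and 0.10 with DMSO and lay 342 and 359 bp from regions called in all 0h libraries. By nearest protein-coding gene another 3 regions belonged to Pmepa1, 6 in all over 78.3 kb.

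An intron of Ski, a co-repressor of SMADs, had 148, 92 and 195 at 4h and 185, 73 and 168 at 24h (-0.07 ± 0.25, adjusted p = 0.97). An intron of Smad3 itself had 111, 72 and 141, then 104, 73 and 115 (-0.12 ± 0.22, adjusted p = 0.94). In both, the values at 4h and 24h overlapped, as did those under ERKi. Of the 25 genes on the TGF-β list 3 (12%) were nearest to a region, and none of the 5 regions rose or fell at 24h. Of all 22238 protein-coding genes 500 (2.25%) were, and of those with any region 3.41%. For the other lists the shares were 13.3% (EMT factors), 6.67% (ERK feedback), 11.8% (matrix), 4% (actin), 8% (junctions) and 9.52% (cytokines and Notch). The late-gained regions were nearest to 16% of the TGF-β list, against 5.11% of all protein-coding genes and 7.75% of those with any region. Their shares of the other lists, in the same order, were 26.7%, 33.3%, 20.6%, 16%, 12% and 14.3%. Shares above those of all genes were thus also found for the late-gained regions, and no difference between shares was tested. By nearest protein-coding gene, 684 of the 22238 had one of the regions described here. The TGF-β list then had 12 regions of 5 genes, Smad7 (3 regions) and Ltbp1 added, of which 0 passed and, with the block, 4 rose. Their differences were between -0.12 and 0.85, with a median of 0.22.

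The EMT transcription factors had 2 regions, of which 1 rose, and 8 by nearest protein-coding gene. Without 4h replicate 1 none of the 2 rose, and without 24h replicate 2 both did. An intron of Ets1, an ETS factor, went from 14, 14 and 18 to 47, 32 and 57 (1.54 ± 0.28, adjusted p = 0.0065). The region upstream of Runx1, whose sequence is printed above, had 23, 14 and 36 at 4h and 68, 22 and 57 at 24h, which overlap (0.96 ± 0.36, adjusted p = 0.17, and 0.0024 with the block). Of the 8 regions by nearest protein-coding gene 5 rose. One lay 107 kb upstream of Hmga2, a chromatin protein that induces Snail in TGF-β-treated cells, with 62, 25 and 65 at 4h and 184, 79 and 164 at 24h (1.52 ± 0.30, adjusted p = 0.0084). The 2 regions 233 and 232 kb from the start of Sox4 also rose (1.33 and 1.35), as did one 258 kb from that of Runx2 (1.14). The region 24.2 kb from the start of Snai1, the gene for Snail, had 24, 19 and 16, then 25, 15 and 18 (-0.04 ± 0.26, adjusted p = 0.99). None of the 11 AP-1 genes and none of the 9 EGF family genes was nearest to a region, and by nearest protein-coding gene Jun had 1 (0.20, adjusted p = 0.95).

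Of the 15 genes of the ERK feedback list, 1 was nearest to a region, Dusp1, which codes for a phosphatase of MAP kinases. Downstream of it, at the sequence printed above, pileups were 26, 16 and 18 at 4h and 78, 34 and 94 at 24h, with no overlap (1.69 ± 0.32, adjusted p = 0.0079). Under ERKi they were 13, 13 and 17, then 88, 28 and 103 (1.91 ± 0.31, adjusted p = 0.006). By nearest protein-coding gene the list had 3 regions, of which 2 rose. A region 38.3 kb from the start of Dusp5, another such phosphatase, rose from 16, 12 and 16 to 42, 26 and 45 (1.33, adjusted p = 0.0087), and one 66.8 kb from that of Spry4, an inhibitor of receptor tyrosine kinase signalling, had 17, 18 and 22, then 33, 26 and 44 (0.83, adjusted p = 0.13, and 0.0058 with the block).

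**Figure D5:**
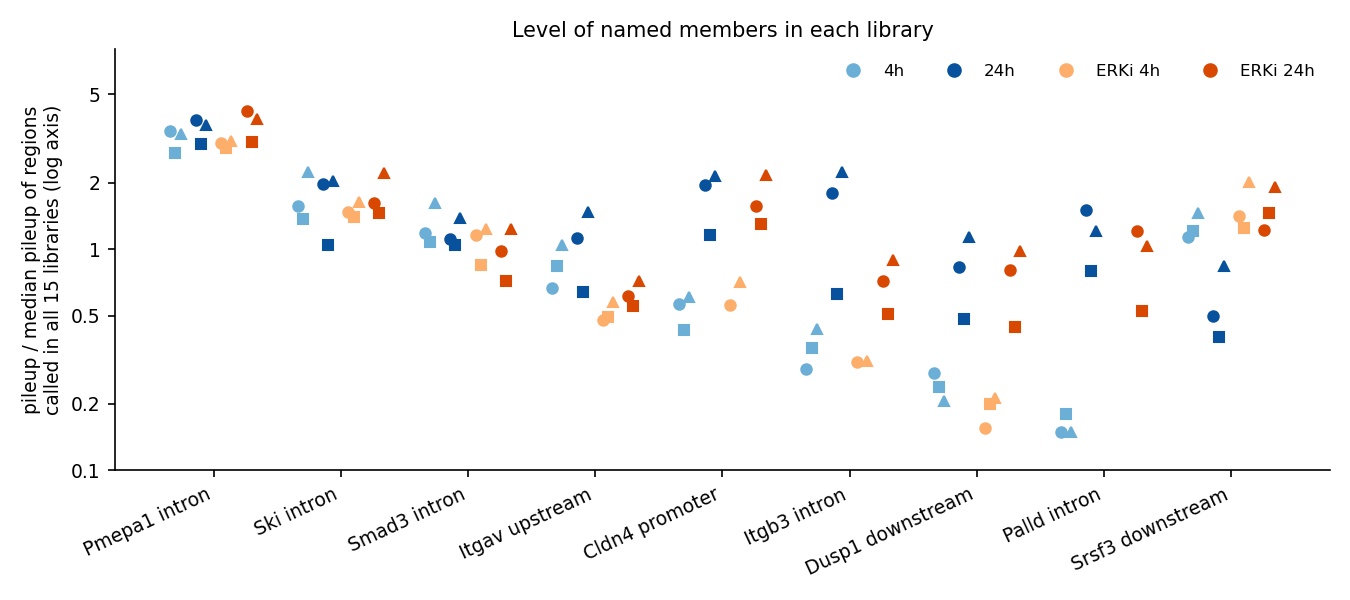
Pileup divided by the median pileup of the regions called in all 15 libraries (log axis) for 9 named regions, in each library with a peak, coloured by group with marker shape for the replicate (circle 1, square 2, triangle 3). The Pmepa1, Ski and Smad3 introns overlap between 4h and 24h, the Cldn4, Itgb3, Dusp1 and Palld regions are higher at 24h in every library, and the Srsf3 region is lower at 24h with DMSO and not under ERKi.

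Of the matrix and adhesion genes, 4 of 34 were nearest to a region, and 1 of these regions rose. It lay in an intron of Itgb3, the integrin β3 chain, and went from 27, 24 and 38 to 168, 44 and 186 (1.94 ± 0.38, adjusted p = 0.0094), with 78, 32 and 94 at ERKi 24h. Without 24h replicate 1, 0 of the 4 rose, and with the block 2 did. The region 9.83 kb upstream of Itgav, the partner chain αv, had 63, 56 and 91, then 106, 45 and 122 (0.29 ± 0.29, adjusted p = 0.82), and under ERKi 40, 32 and 46, then 67, 35 and 75. The Lamb1 region, in an intron of the laminin β1 gene, had 25, 20 and 21, then 21, 14 and 22 (-0.23 ± 0.25, adjusted p = 0.83). By nearest protein-coding gene 3 of 9 regions rose, among them the 2 of the matrix protein gene Tnc. These lay 104 and 122 kb from its start and went from 20, 14 and 15 to 117, 57 and 106 (2.47 ± 0.29, adjusted p = 0.00058) and from 15, 17 and 22 to 53, 27 and 52 (1.24 ± 0.30, adjusted p = 0.027).

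The actin list of 25 genes had only Palld, whose second region also rose (1.23 ± 0.32, adjusted p = 0.044). Only 1 of its 2 regions rose without any 1 library other than 24h replicate 2. The junction list had 2 regions. The Cldn4 promoter, whose gene codes for the tight junction protein claudin 4, had a summit 0.714 kb upstream of the start and went from 53, 29 and 53 to 184, 81 and 178 (1.68 ± 0.27, adjusted p = 0.0032), with 170, 82 and 228 at ERKi 24h. The region 37.2 kb upstream of Epcam had 23, 16 and 37, then 33, 15 and 37 (0.14, adjusted p = 0.96). Of the cytokine and Notch genes, an intron of Wnt7a rose from 15, 15 and 16 to 52, 44 and 46 (1.62 ± 0.27, adjusted p = 0.0037), and a region 78.7 kb from the start of the Notch ligand gene Jag1 had 102, 47 and 82, then 154, 97 and 128 (0.76 ± 0.22, adjusted p = 0.065, and 0.00013 with the block). That region lies 17 bp from one called in all 0h libraries.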

How the data were processed

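H3K27ac ChIP-seq peak lists of 15 libraries were analysed; 10 RNA-seq and 3 input samples were not analysed here. Per the submitters' processing notes, the reads of each library were mapped with Bowtie to mm9, and the authors ran MACS2 on single libraries. The deposited columns used here were the fold enrichment (a ratio to the local background), the −log10 p and the −log10 q; the deposited score was not used. No normalization between libraries was applied, and the lists hold no read totals. They held 50445 to 69180 peaks per library. With no read totals, no counting interval was computed, and 3 libraries per group set the precision.

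Pileups were solved from fold and −log10 p, with Poisson upper tails, and were not recovered within 0.005 for 25 of 893719 peaks. The highest peak of a library in a region stood for it, and each library was centred on the median log2 pileup of the regions called in all 15. Changes were tested with limma 3.58.1 in R 4.3.3 on log2 pileup over all regions called in every library compared, with no block, two-sided, Benjamini-Hochberg adjusted over all regions. The scripts were tested on simulated data. Same-numbered libraries of different groups deviated together, with a correlation over 0.1 in 30 of 30 pairs (0.336 to 0.790), so the replicate number was also used as a block.

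Genes and start sites were those of the GENCODE annotation of NCBIM37, and sequences came from the same assembly. Motifs were searched as fixed letters on both strands. The regions, gene lists, tests and alternatives were chosen with earlier results of these data known. Named regions were the 10 with the highest mean percentile by pileup, up to 4 per direction with the lowest adjusted p with DMSO and up to 3 under ERKi, those called in no ERKi library, genes with at least 3 regions, and regions near genes of 9 lists; 1 such region is not reported here. Alternatives were stricter peaks, other merging, other units and centring, the replicate block, and leaving out each library. The motif profile, the pair of elements, lists by protein-coding gene, and splits by level and by distance from 0h regions were added after seeing the data. Python 3.11.15 was used for the rest.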

Additional observations from a re-analysis of the deposited data

Results flagged for a closer look

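The test of whether the change from 4h to 24h differs between ERKi and DMSO gave different answers with and without the replicate block. With the block, 24 of the 481 regions tested differed between the treatments (19 with the higher change under ERKi and 5 with the lower), beside 2.98% and 2.02% of all 28650 regions tested, and without it 0 did. The 24 are 4.99% of the 481, and 5.0% of all regions tested were called, so the count is near the background. The lowest adjusted p values with the block belonged to the Hadh and Srsf3 regions described above, followed by a region in an intron of Tctn1, a ciliary transition zone gene (1.64 ± 0.46 on the log2 scale, -0.55 with DMSO and 1.09 under ERKi), and one in an intron of Tnrc6b, a gene of microRNA silencing (1.02 ± 0.31, -0.55 with DMSO and 0.47 under ERKi). Limma's adjusted p was 0.00112 and 0.00138 with the block and 0.622 and 0.696 without it.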

How the results depend on the processing

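The number of regions that met the rule went from 798 to 464 with peaks of −log10 q of at least 10, to 261 with the 20000 strongest peaks per library, to 270 with a fold enrichment of at least 5, and to 468 when peaks had to cover at least 0.5 of the region. Leaving out 1 library gave 799 to 1290, the highest without 4h replicate 2. The mean ERKi 4h share was 72.6% to 89.2% and the ERKi 24h share 90.2% to 97.9% with 1 library left out. Regions of the 798 that changed at 24h with DMSO numbered 258 as reported, 16 on log2 fold enrichment, 160 on log2 of −log10 p, 82 without the lowest 25% of the regions by pileup, which leaves fewer of them to test, and 120 to 391 with 1 library left out. Under ERKi the 139 became 7, 89, 88 and 51 to 187. With the replicate block these counts were 520 and 336, and the interaction gave 24 in place of 0, with 0 to 0 when 1 library was left out without the block. The promoter share was 11.4% within 2500 bp, and AP-1 was found in 57.8% in 1000 bp windows. The cause of these shifts was not tested. For the 9 regions named for the lowest adjusted p per direction, with DMSO or under ERKi, 90 alternatives kept their side of the threshold, 17 lost it and none reversed. For most other named regions the alternatives one by one are not given here. Read depth is not known from the lists, and a region without a call at 0h is one under the caller's threshold.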

Other observations

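Several genes had 3 or more of the regions nearby. The intron of Gm20388 whose nearest start site is Gm22 held 5 regions over 38.0 kb on chromosome 8, all called in 3 of 3 libraries at ERKi 4h and ERKi 24h, of which 2 rose from 4h to 24h with DMSO, and all 5 with the replicate block. Spsb1, whose product targets the type II TGF-β receptor and nitric oxide synthase for ubiquitination, was the nearest protein-coding gene of 5 regions over 37.2 kb, all called in 3 of 3 libraries at both ERKi times. The highest of these had pileups of 86, 46 and 88 at 4h and 184, 111 and 190 at 24h (1.16 ± 0.22 on the log2 scale, limma adjusted p = 0.0078), and 56, 28 and 66, then 232, 82 and 241 under ERKi (1.58, adjusted p = 0.0066). Dusp10, a phosphatase of p38 and JNK, had 3 regions over 164 kb, and all 3 rose with DMSO. Each was called in 2 of 3 ERKi 4h libraries and in 3 of 3 ERKi 24h libraries. The highest of them had 26, 17 and 27 at 4h and 76, 45 and 64 at 24h (1.40 ± 0.27, adjusted p = 0.0083), with 29 and 16 in replicates 1 and 3 at ERKi 4h and 99, 22 and 82 at ERKi 24h.

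Tns1, which codes for the focal adhesion protein tensin 1, had 3 regions in its introns, of which 2 rose, and all 3 with the block. The higher of these went from 39, 21 and 42 to 190, 55 and 153 (1.85 ± 0.33, adjusted p = 0.0063) with DMSO and from 36, 22 and 34 to 173, 55 and 150 (1.67, adjusted p = 0.0054) under ERKi. Basp1 and Dyrk3 had 3 regions each with 1 rise, and with the block all 3 of each rose, and Ext1, which makes heparan sulfate chains, had 3. In Ext1 the region 45.0 kb from the start went from 17, 11 and 18 to 89, 33 and 86 (2.08 ± 0.32, adjusted p = 0.0027), with no call at ERKi 4h and 29, 13 and 28 at ERKi 24h. Its 4h values with DMSO were at the low percentiles of 6.69, 0.973 and 15.85. Kank1, a regulator of actin at the cell cortex, had 3 regions of which none passed with DMSO, with differences of 0.48, 0.37 and 0.83, and 1 with the block (0.83, adjusted p = 0.0040). Gm5528 had 4 regions over 187 kb, of which 1 rose, and 3 with the block.

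AP-1 was found in the 1000 bp around the summit in 68.4% of the 256 regions that rose with DMSO and in 53.0% of the 540 that were not called, and the SMAD palindrome in 6.25% and 6.67%. By the number of ERKi 4h libraries that called a region, from 0 to 3, the share with AP-1 was 61.5%, 54.0%, 62.3% and 56.3%. The ETS element AGGAAGT was found in 41.0%, 36.5%, 27.9% and 25.3%, and the SMAD box in 79.5%, 77.8%, 86.9% and 88.1%. The RUNX element stood in 51.3%, 57.1%, 56.3% and 61.0%, and the palindrome in 10.3%, 4.76%, 3.83% and 7.41%. These groups held 39, 63, 183 and 513 regions. These shares were not tested.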
